A study of Mus musculus with 4 samples.

Results

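Pgk2, Pdha2, Rpl10l, Cstf2t, Rbmxl2, Utp14b and Cetn1 are 7 autosomal genes of the mouse testis that arose as retrocopies of X-linked genes. They were picked by name for that origin, and all 7 were found by symbol among the 21887 protein-coding genes of the RefSeq gene table of GRCm38.p6, the assembly behind mm10. Accessible chromatin around them was read from ATAC-seq, an assay that inserts sequencing adapters into open DNA with the Tn5 transposase, in pachytene spermatocytes from testis. A Znhit1 knockout, labelled Znhit1_KO, was set against a control labelled CTRL. Both carry the tag P35, and the labels name no strain, driver of the deletion, control genotype or number of animals. The labels list 4 libraries, 2 per genotype, and 1 list of peak intervals per genotype was analysed here, so differences between genotypes have no replicate check and carry no p-value.

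A retrogene forms when a messenger RNA is copied back into DNA and inserted elsewhere, usually without introns and without its parent's promoter. In male meiosis the X chromosome is silenced at pachytene and packed into the sex body, which shuts down X-linked genes that every cell needs. Autosomal retrocopies that are active in the testis supply the same activity while the parent is off. ZNHIT1 is a subunit of the SRCAP complex, which exchanges H2A for its variant H2A.Z in nucleosomes.

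The knockout list held 21004 distinct intervals and the control list 15376, with a median width of 352 bp in the knockout list and of 427 bp in the control list. The lists hold positions only, with no height, score or summit, and while the labels put every library above 30000000 reads, the reads used for each list are not stated. An interval could stand on several lines of a list, and 29.0% of knockout intervals and 39.1% of control intervals were listed more than once. All 8 pachytene spermatocyte markers, among them Sycp1, Sycp3, Hormad1 and Ldhc, had an interval within 1 kb of the gene in both lists. None of the 6 spermatid markers and none of the 6 Sertoli cell markers had one in either list. Of the 6 spermatogonial markers, 3 had one in the knockout list and 4 in the control list. Among 6 further somatic markers, of Leydig, muscle-like, endothelial and immune cells, 3 had one in the knockout list (Acta2, Pecam1 and Ptprc) and 0 in the control list. The share of all genes with an interval within 1 kb was not counted, so these marker counts have no such share beside them. The part of somatic cells in the differences below was not tested.

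The sequences just before the annotated starts are shown first, because the intervals of 5 of these 6 genes reach into them. Each is the 250 bases before the start named in RefSeq (GRCm38.p6), written 5′ to 3′ on the gene's own strand, with capitals for bases inside the knockout interval. They lie at chr17:40208610-40208859 (minus strand) for Pgk2, chr3:141212356-141212605 (minus) for Pdha2, chr12:66284402-66284651 (minus) for Rpl10l, chr19:31082591-31082840 (plus) for Cstf2t, chr7:107209195-107209444 (plus) for Rbmxl2 and chr1:78658190-78658439 (plus) for Utp14b.
Pgk2: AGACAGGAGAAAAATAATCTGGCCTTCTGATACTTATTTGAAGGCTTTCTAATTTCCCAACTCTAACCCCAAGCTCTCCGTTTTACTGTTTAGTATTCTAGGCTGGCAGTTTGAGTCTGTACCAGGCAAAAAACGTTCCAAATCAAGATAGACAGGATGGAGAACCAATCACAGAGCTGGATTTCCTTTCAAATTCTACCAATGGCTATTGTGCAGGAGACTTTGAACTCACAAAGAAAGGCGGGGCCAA
Pdha2: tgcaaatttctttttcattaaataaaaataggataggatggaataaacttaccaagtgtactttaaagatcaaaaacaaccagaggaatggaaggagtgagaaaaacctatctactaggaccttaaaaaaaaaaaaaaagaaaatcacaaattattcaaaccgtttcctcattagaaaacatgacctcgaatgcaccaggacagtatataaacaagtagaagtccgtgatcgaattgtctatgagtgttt
Rpl10l: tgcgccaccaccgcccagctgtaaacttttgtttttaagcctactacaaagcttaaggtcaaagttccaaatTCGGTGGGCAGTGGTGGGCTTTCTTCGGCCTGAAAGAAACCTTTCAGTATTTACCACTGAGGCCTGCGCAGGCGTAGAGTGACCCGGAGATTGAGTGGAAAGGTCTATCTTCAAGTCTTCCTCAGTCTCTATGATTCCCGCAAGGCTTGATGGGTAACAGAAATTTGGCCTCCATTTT
Cstf2t: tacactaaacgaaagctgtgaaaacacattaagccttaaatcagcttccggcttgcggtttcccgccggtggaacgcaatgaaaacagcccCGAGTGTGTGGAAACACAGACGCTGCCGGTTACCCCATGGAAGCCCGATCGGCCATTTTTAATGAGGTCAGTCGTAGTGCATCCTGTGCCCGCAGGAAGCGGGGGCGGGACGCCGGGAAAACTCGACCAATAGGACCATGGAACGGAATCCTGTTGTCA
Rbmxl2: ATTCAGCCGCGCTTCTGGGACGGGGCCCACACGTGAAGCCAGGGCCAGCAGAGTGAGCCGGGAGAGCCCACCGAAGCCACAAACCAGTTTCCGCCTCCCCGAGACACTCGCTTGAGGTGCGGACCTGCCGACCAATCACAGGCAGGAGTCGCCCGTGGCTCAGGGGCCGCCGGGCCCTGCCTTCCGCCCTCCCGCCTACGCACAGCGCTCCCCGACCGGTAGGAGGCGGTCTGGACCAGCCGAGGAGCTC
Utp14b: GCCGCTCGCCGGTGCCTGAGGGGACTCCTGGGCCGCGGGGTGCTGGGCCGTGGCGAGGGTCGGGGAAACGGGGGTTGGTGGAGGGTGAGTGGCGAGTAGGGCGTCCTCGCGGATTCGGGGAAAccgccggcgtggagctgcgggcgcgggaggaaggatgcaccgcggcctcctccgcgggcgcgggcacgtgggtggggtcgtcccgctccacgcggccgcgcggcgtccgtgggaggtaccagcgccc
The knockout interval took in all 250 bases for Pgk2 and Rbmxl2, 178 for Rpl10l, 159 for Cstf2t, 123 for Utp14b and 0 for Pdha2. The control interval took in all 250 for Rpl10l, Rbmxl2 and Utp14b, 160 for Cstf2t, and 0 for Pgk2 and Pdha2.

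Each of the 7 retrogenes had an interval in at least 1 of the lists. An interval inside the gene or within 10 kb of either end was present at 6 of 7 in the knockout list and at 6 of 7 in the control list. Over the 20665 autosomal protein-coding genes the same held for 63.0% in the knockout list and 54.6% in the control list. Since 6 of the 7 retrogenes span 5 kb or less, genes of that length are given as well. The part of gene length in these shares was not tested. Over the 4569 autosomal protein-coding genes of 5 kb or less, 36.7% had an interval in the knockout list and 30.8% in the control list. Pdha2, Rpl10l, Cstf2t, Rbmxl2 and Utp14b had one in both lists, against 48.5% of autosomal genes and 25.0% of the short ones. Utp14b spans 9777 bp, and its intervals also cover the start of its host Acsl3, so they cannot be assigned to Utp14b. Pgk2 had one in the knockout list alone, a pattern found at 14.4% of autosomal genes, and Cetn1 in the control list alone, found at 6.03%.

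**Figure D1:**
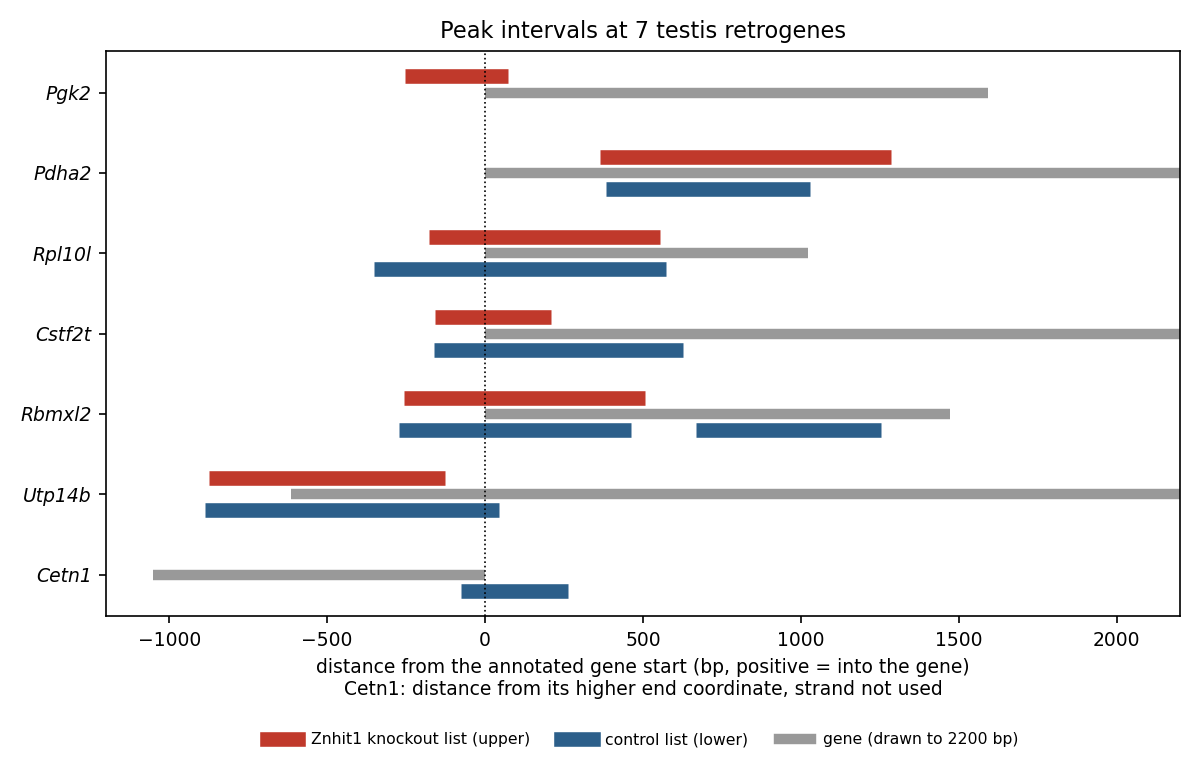
Intervals of the Znhit1 knockout list (red, above each gene) and the control list (blue, below) at the 7 retrogenes, by distance in bp from the annotated start, with the gene in grey drawn to 2200 bp. For Cetn1 the distance is from the higher end coordinate of the gene, since no strand was used, and positive values lie outside it. The start lies inside the knockout interval at Pgk2, Rpl10l, Cstf2t and Rbmxl2, and inside the control interval at Rpl10l, Cstf2t, Rbmxl2 and Utp14b.

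The retrogene sites touched the genes as the gene table bounds them, mostly with 1 interval per gene and list, as at most genes with any. In the knockout list each of the 6 genes had exactly 1 interval, a pattern shared by 52.9% of autosomal genes that had any and by 67.5% of the short ones. In the control list 5 of the 6 did, against 60.6% of autosomal and 72.1% of short genes, and Rbmxl2 had 2. The annotated start lay inside an interval at 4 of the 6 retrogenes in the start table in the knockout list, against 37.4% of autosomal and 17.0% of short genes. In the control list it did so at 4 of 6, against 32.0% and 15.1%. Those shares include genes without any interval. All 6 of these retrogenes had one in the knockout list, and all but Pgk2 had one in the control list. Among genes with an interval within 10 kb, a start was covered at 59.1% of autosomal and 46.2% of short ones in the knockout list. In the control list these shares were 58.1% and 48.4%. All 13 intervals, 6 in the knockout list and 7 in the control list, touched the gene body, and a window of 20 kb added none. For the Utp14b knockout interval this holds only for the gene table's boundary, since it ended 128 bp before the start listed for Utp14b. Distance to the next interval of the same list was 726 kb at Pgk2 in the knockout list, against a median of 22.3 kb over that list, and 99.4% of its intervals had a closer neighbour. At Pdha2 it was 304 kb in the knockout list and 786 kb in the control list, where the median was 26.5 kb. At Rpl10l the distance was 94.8 kb in the knockout list and 774 kb in the control list. It was 137 kb at Cstf2t and 142 kb at Rbmxl2 in the knockout list, and 168 kb at Utp14b in the control list. At each of these sites at least 88.1% of the intervals of its list had a closer neighbour. The next interval lay closer for Cstf2t (25.0 kb) and Cetn1 (42.7 kb) in the control list and Utp14b (48.2 kb) in the knockout list. At these last sites 48.4%, 64.8% and 73.7% of the intervals of the respective list had a closer neighbour. The 2 control intervals of Rbmxl2 lay 0.205 kb apart. Pgk2 and Pdha2 have no other annotated gene within 10 kb, and neither has Rpl10l.

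Pgk2 encodes the testis phosphoglycerate kinase, a glycolytic enzyme that sperm use for motility, and its X-linked parent is Pgk1. The gene spans 1592 bp (chromosome 17, 40207018 to 40208609, minus strand). The knockout interval ran from 40208537 to 40208863, was 327 bp wide and was listed once. It lay across the start, with 254 bp before it and 73 bp from it on, and covered the whole 300 bp start window (250 bp before to 50 bp after the start). The control list had no interval at Pgk2, and its nearest ones lay 2996 kb and 726 kb away. The knockout interval was a little narrower than the median of its list, wider than 45.1% of it. The presence of this site rests on 1 interval that was listed once.

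Pdha2 encodes the testis form of the E1 alpha subunit of pyruvate dehydrogenase, the mitochondrial enzyme complex that feeds pyruvate into the citric acid cycle. The gene lies on chromosome 3 (141210004 to 141212355, minus strand, 2352 bp), and its parent is Pdha1. The knockout interval ran from 141211070 to 141211991, 922 bp wide and listed 3 times. The control interval ran from 141211325 to 141211972, 648 bp wide and listed 2 times. Both lay wholly inside the gene and did not reach the annotated start, which was 364 bp away from the knockout interval and 383 bp away from the control interval. The control interval lay entirely within the knockout interval, which extended 255 bp further towards the 3′ end of the gene. Of the autosomal genes in the start table that had an interval within 10 kb, 59.1% had a start inside an interval in the knockout list and 58.1% in the control list, so an uncovered start is common.

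Rpl10l encodes the testis copy of ribosomal protein L10 of the large subunit, needed in mice for spermatocytes to enter the meiotic divisions. The gene is 1023 bp long (chromosome 12, 66283379 to 66284401, minus strand) and its parent is Rpl10. The knockout interval ran from 66283848 to 66284579 (732 bp, listed 3 times) and the control interval from 66283828 to 66284753 (926 bp, listed 2 times). The knockout interval lay within the control interval. The ends inside the gene differed by 20 bp, whereas on the upstream side the knockout interval reached 178 bp before the start and the control interval 352 bp.

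Cstf2t encodes tauCstF-64, a testis form of the cleavage stimulation factor subunit that binds RNA near polyadenylation sites and is needed for male fertility in mice. It spans 3752 bp (chromosome 19, 31082841 to 31086592, plus strand), inside the host gene Prkg1, and its parent is Cstf2. The knockout interval ran from 31082682 to 31083050 (369 bp) and the control interval from 31082681 to 31083468 (788 bp), each listed once. They began 1 bp apart, at 159 bp before the start in the knockout list and 160 bp in the control list. The knockout interval ended 418 bp sooner inside the gene. Prkg1, a cyclic GMP-dependent protein kinase gene of 1200782 bp on the opposite strand, had its annotated starts 578 kb and 678 kb away, and neither was inside an interval of either list. Prkg1 held 5 intervals in the knockout list and 2 in the control list, of which 1 in each list was at Cstf2t.

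Rbmxl2 encodes hnRNP G-T, a nuclear RNA-binding protein that acts on splicing in meiosis, and its parent is Rbmx. The gene is 1472 bp long (chromosome 7, 107209445 to 107210916, plus strand). At its start the knockout interval ran from 107209188 to 107209953 (766 bp) and the control interval from 107209174 to 107209906 (733 bp), each listed 3 times. These were the most alike of the pairs, with 719 bp in common, 93.9% of the knockout interval and 98.1% of the control interval. The control list had another interval inside the gene, from 107210112 to 107210699 (588 bp, listed once), separated from the first by 205 bp. No knockout interval overlapped it.

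Utp14b encodes a protein of the small subunit processome that matures ribosomal RNA, and its loss in the mouse mutant jsd stops spermatogenesis at the spermatogonia. Its parent is Utp14a. The gene table gives it the same first base as its host Acsl3, an acyl-CoA synthetase gene (chromosome 1, 78657825, plus strand), and ends it at 78667601. The knockout interval ran from 78657567 to 78658312 (746 bp, listed 2 times) and the control interval from 78657554 to 78658485 (932 bp, listed 3 times). Both covered the Acsl3 start at 78657825. The start listed for Utp14b itself, at 78658440, lay inside the control interval and 128 bp beyond the end of the knockout interval. The control interval thus spans the starts of both genes, and the knockout interval that of Acsl3 without that of Utp14b. Neither interval can be assigned to Utp14b rather than Acsl3, so accessibility of the 2 genes cannot be told apart here.

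Cetn1 encodes a testis centrin, a calcium-binding protein of centrioles and the base of cilia, and its parent is Cetn2. The gene lies on chromosome 18 (9618419 to 9619469, 1051 bp). The control interval ran from 9619393 to 9619733, 341 bp wide and listed once, with 77 bp inside the higher end of the gene and 264 bp beyond it. Its width exceeded 35.3% of the control list. In the knockout list the nearest intervals lay 168 kb and 87.9 kb away from the gene. Pgk2 and Cetn1, the genes with an interval in a single list, thus had intervals narrower than the list median and listed once.

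At the sites held by both lists, knockout and control intervals differed in width in both directions. On the log2 scale, knockout width over control width was 0.51 at Pdha2, 0.06 at Rbmxl2, -0.32 at Utp14b, -0.34 at Rpl10l and -1.09 at Cstf2t. Over 6296 sites in the genome where 1 knockout interval met 1 control interval, the median was 0.03 with quartiles of -0.29 and 0.38. Cstf2t lay at percentile 2.95 of these sites, and Pdha2 at percentile 81.6. Of the 6 knockout intervals 5 overlapped a control interval, against 32.4% of that list. Of the 7 control intervals 5 overlapped a knockout interval, against 44.4%. Both shares are over all intervals of a list, wherever they lie. By gene, 10027 of the 13012 autosomal genes with a knockout interval had one in both lists, beside 5 of the 6 retrogenes. For the control list it was 10027 of 11274, beside 5 of 6, so holding an interval in both lists was common at such genes. Intervals listed more than once numbered 4 of 6 in the knockout list, against 29.0% of that whole list. In the control list they numbered 4 of 7, against 39.1%. The genes with such an interval were Pdha2, Rpl10l, Rbmxl2 and Utp14b in each list. With only these intervals kept, Pgk2, Cstf2t and Cetn1 had none in either list.

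**Figure D2:**
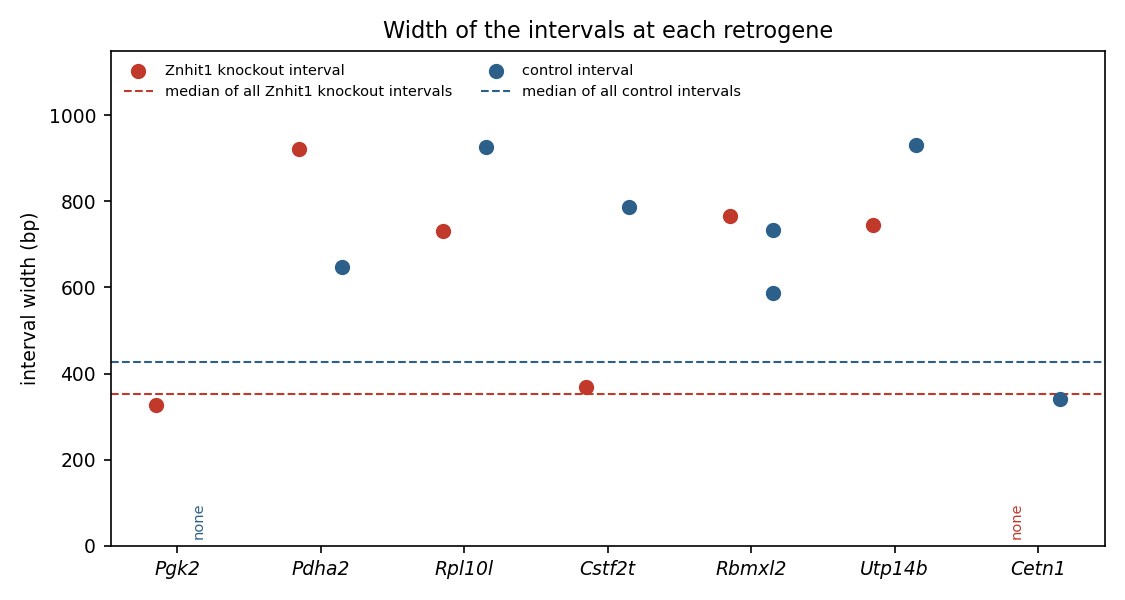
Width in bp of every interval at the 7 retrogenes, in the Znhit1 knockout list (red, left) and the control list (blue, right), with dashed lines at the median of each whole list, 352 bp for the knockout list and 427 bp for the control list. Knockout widths ran from 327 to 922 bp and control widths from 341 to 932 bp, and those under the median of their list were Pgk2 in the knockout list and Cetn1 in the control list.

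Base composition set Pgk2 apart from the other covered starts. The CpG ratio is the number of CG pairs divided by the number that the C and G content would give. It was 0.29 in the start window of Pgk2, 0.61 in Pdha2, 0.64 in Rpl10l, 0.82 in Rbmxl2, 1.02 in Utp14b and 1.08 in Cstf2t. The G+C content was 43.0% in Pgk2, 29.7% in Pdha2, 52.0% in Rpl10l, 56.7% in Cstf2t, 69.3% in Rbmxl2 and 75.0% in Utp14b. Over autosomal protein-coding start windows with a CpG ratio under 0.4, 2.51% of 7714 were reached by a knockout interval and 2.02% by a control interval. Of the 9822 with a ratio over 0.6, 65.6% were reached by a knockout interval and 57.0% by a control interval. Pgk2 thus belonged to a class of start that seldom held an interval in either list. Pdha2 had a ratio just over 0.6 and 4 CG pairs in its AT-rich window, and was reached by neither list. Pgk2 also had 4 CG pairs in its window.

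Short motifs in the 300 bp start windows, searched on both strands, differed among the retrogenes. The CCAAT box, CCAAT, was present in Pgk2, at 86 and 52 bases before the start, and in Cstf2t and Rbmxl2. It occurs in 38.2% of 21263 protein-coding start windows. TATAAA was present in Pdha2 alone, 44 bases before the start, and occurs in 12.6% of windows. GGGCGG, the GC box, was present in Rpl10l, Cstf2t and Rbmxl2 (46.2% of windows). CAACNG, a MYB-type motif, was found in Cstf2t alone (34.1%), and TGACG, a cyclic AMP response element core, in none of the 6 (23.6%). Utp14b held none of the 5 motifs. No match of one motif overlapped a match of another in these 6 windows, and a match describes letters, not binding.

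Most of the X-linked parents had no interval in either list. An interval within 10 kb was present at 3 of 7 parents in the knockout list (Cstf2, Rbmx and Cetn2) and at 1 of 7 in the control list (Rbmx). Over the 966 X-linked protein-coding genes it was present at 12.0% in the knockout list and at 9.94% in the control list. Pgk1, Pdha1, Rpl10 and Utp14a had none in either list, a state found at 84.6% of X-linked genes. Their CpG ratios, from 0.72 for Pgk1 to 0.94 for Utp14a, were all over 0.6. Of 301 X-linked start windows over 0.6, 21.3% were reached in the knockout list and 18.3% in the control list. In the control list neither Pgk2 nor Pgk1 had an interval. In the knockout list Cetn1 had none while its parent Cetn2 had one. With only intervals listed at least 2 times, 1 parent remained in the knockout list, Cetn2, and 0 in the control list. The share of all X-linked genes that such intervals reach was not counted.

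**Figure D3:**
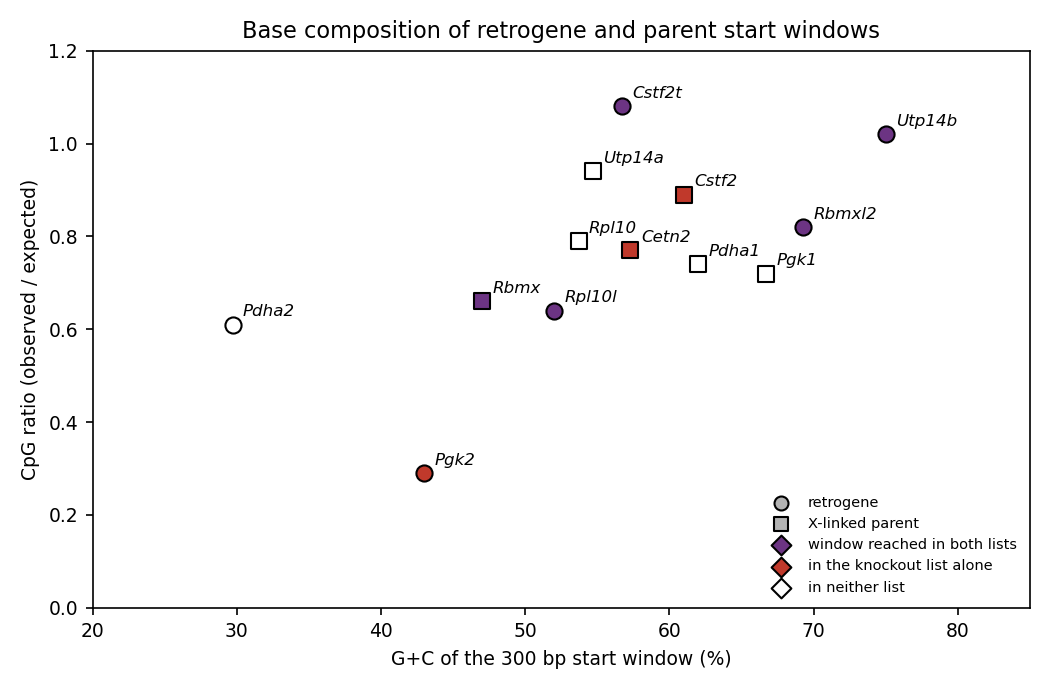
G+C content in percent (x axis) and CpG ratio (y axis) of the 300 bp start windows of 6 retrogenes (circles) and their 7 X-linked parents (squares), filled by the lists whose intervals reach the window. Pgk2, with a CpG ratio of 0.29 and a window reached in the knockout list alone, lies below all the others, and 4 parents with ratios of 0.72 to 0.94 were reached in neither list.

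The parents with an interval are shown in the same way, at chrX:134058926-134059175 (plus strand) for Cstf2, chrX:57393037-57393286 (minus) for Rbmx and chrX:72918345-72918594 (minus) for Cetn2, to set their starts beside those of the retrogenes.
Cstf2: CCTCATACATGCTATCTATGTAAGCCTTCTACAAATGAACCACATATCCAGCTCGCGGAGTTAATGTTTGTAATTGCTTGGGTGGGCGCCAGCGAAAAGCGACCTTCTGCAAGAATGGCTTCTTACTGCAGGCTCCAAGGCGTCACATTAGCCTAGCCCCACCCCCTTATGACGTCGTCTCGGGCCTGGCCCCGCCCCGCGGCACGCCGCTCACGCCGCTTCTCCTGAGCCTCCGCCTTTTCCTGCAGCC
Rbmx: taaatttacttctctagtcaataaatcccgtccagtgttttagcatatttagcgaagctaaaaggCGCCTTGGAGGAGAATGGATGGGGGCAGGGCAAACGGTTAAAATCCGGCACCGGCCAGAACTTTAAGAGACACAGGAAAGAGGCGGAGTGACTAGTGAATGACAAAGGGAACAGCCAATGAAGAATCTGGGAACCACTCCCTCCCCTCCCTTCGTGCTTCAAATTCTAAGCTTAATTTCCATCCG
Cetn2: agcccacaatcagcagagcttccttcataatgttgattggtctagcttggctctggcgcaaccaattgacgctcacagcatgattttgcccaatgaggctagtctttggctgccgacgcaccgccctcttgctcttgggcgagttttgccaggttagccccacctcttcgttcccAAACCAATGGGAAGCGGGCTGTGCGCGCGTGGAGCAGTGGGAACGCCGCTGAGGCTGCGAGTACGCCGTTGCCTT
The Cstf2 interval in the knockout list ran from 134058914 to 134059541 (628 bp, listed once) and covered the whole window. At Rbmx the knockout interval ran from 57392901 to 57393221 (321 bp) and the control interval from 57392580 to 57393220 (641 bp), each listed once. These ended 1 bp apart upstream of the start, while the knockout interval stopped 321 bp sooner inside the gene. The Cetn2 interval in the knockout list ran from 72918025 to 72918419 (395 bp, listed 2 times). It lay within 1 kb of Nsdhl, a cholesterol synthesis gene whose own start, 177 bp from the Cetn2 gene, it did not cover.

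Other X-derived retrogenes of the mouse were read in the same way, and their difference from the 7 was not tested. Of 12 (D1Pas1, Prps1l1, Gk2, Fam50b, Ubl4b, Timm8a2, Rpl39l, Rpl36al, Mcts2, Zrsr1, Tktl2 and Rbmxl1), 7 had an interval within 10 kb in the knockout list and 8 in the control list. In both lists there were 6. These counts lie near the shares over autosomal genes given above, which were 63.0% in the knockout list, 54.6% in the control list and 48.5% in both. Most of the 12 span 5 kb or less. Like those of the 7, their counts lie above the shares over short autosomal genes, 36.7% in the knockout list, 30.8% in the control list and 25.0% in both. Timm8a2, which encodes a small chaperone of mitochondrial protein import, had a start interval of 357 bp in the knockout list alone. Rpl39l, a testis copy of a ribosomal protein, had one of 408 bp in the control list alone. Fam50b had an interval of 546 bp in the control list alone, which lay 7237 bp past its nearest listed start.

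D1Pas1, a testis RNA helicase derived from Ddx3x, had a start interval of 878 bp in the knockout list and of 1589 bp in the control list, the widest control interval of these genes. Its log2 width ratio of -0.86 lay at percentile 5.77 of the shared sites. Tktl2, a transketolase-like gene, had intervals of 580 bp in the knockout list and 653 bp in the control list that began at the same base. Rpl36al shared its interval, 1009 bp in the knockout list and 1132 bp in the control list, with the neighbouring glycosyltransferase gene Mgat2. Rbmxl1, another copy of Rbmx, had 2 intervals in each list, all within 1 kb of the neighbouring gene Slc10a7. Mcts2 and Zrsr1, which sit inside the host genes H13 and Commd1, had intervals in both lists at the retrogene. Those of Mcts2 were 556 bp wide in the knockout list and 791 bp in the control list, and those at the Zrsr1 gene 844 bp in the knockout list and 1343 bp in the control list. Prps1l1, Gk2 and Ubl4b had none in either list.

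**Figure D4:**
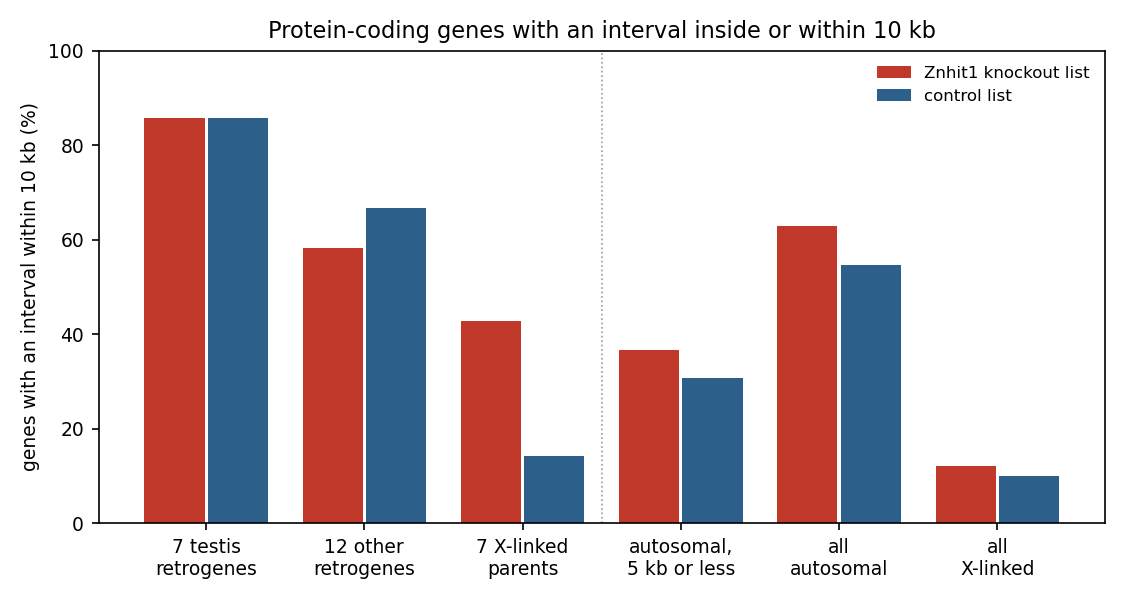
Percentage of genes with an interval inside the gene or within 10 kb of either end, in the Znhit1 knockout list (red, left) and the control list (blue, right), for the 7 retrogenes, 12 other X-derived retrogenes and 7 X-linked parents, beside autosomal protein-coding genes of 5 kb or less, all autosomal and all X-linked ones. The bars of the knockout list stand for 6 of 7 retrogenes, 7 of 12 other retrogenes and 3 of 7 parents. Those of the control list stand for 6, 8 and 1. Utp14b is counted in both lists, though its intervals also cover the Acsl3 start.

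Retrocopies resemble their parents and other copies in the coding part, so reads from there can be placed at more than 1 locus, and the labels do not say how such reads were treated. The gene table names 10 pseudogenes after the 7 retrogenes or their parents, among them 6 for Rpl10l or Rpl10 and 3 for Pgk2 or Pgk1. Copies under other names were not searched, so these 10 cannot show whether reads were shared. None of the 10 had an interval in its body in either list. The intervals of Pdha2 and the second control interval of Rbmxl2 lie wholly inside the gene, and all the others lie partly inside. At Rpl10l 554 of 732 bp lay inside in the knockout list and 574 of 926 bp in the control list. The part of shared reads in any interval was not tested.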

How the data were processed

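ATAC-seq libraries of pachytene spermatocytes were made by the submitters and sequenced on the NovaSeq platform, per the labels' protocols. Per the submitters' processing notes the tools were MACS2 2.2.4, Picard 2.20.7, Bowtie2 2.3.4.3 and cutadapt 2.5, with the build mm10. Peak thresholds, multiply placed reads and pooling of replicates are not described there. The authors deposited 3 columns per interval (chromosome, start, end) and no other value such as a score. Repeated lines were counted once as an interval, with the number of lines kept as the times listed, and positions were made 1-based.

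Genes and starts came from RefSeq tables of GRCm38.p6. The start table held 6 of the 7 retrogenes, 7 of 7 parents and 17492 protein-coding genes. It gives no exons, so exonic, intronic and UTR positions were not assigned. Overlap meant at least 1 bp. Members, gene lists and motifs were chosen with earlier results of these data known. The genes named are the members, their parents, other retrogenes with an interval within 1 kb, hosts and coding genes within 1 kb of a counted interval; other retrogenes without one are named to account for the list. No gene was named for a similar pattern, because 2 lists allow only 4 patterns. The counting was tested on simulated intervals. Python 3.11.15, numpy 2.4.6, pandas 2.3.3 and matplotlib 3.10.9 were used.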

Additional observations from a re-analysis of the deposited data

How the results depend on the processing

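The number of retrogenes with an interval was 6 in the knockout list and 6 in the control list under all of these alternatives: gene body only, windows of 1, 5 and 20 kb, intervals at least 300 bp wide, equal numbers of the widest intervals, and merging within 200 bp. The number of X-linked parents stayed at 3 in the knockout list and 1 in the control list under these. With only intervals listed at least 2 times the number of retrogenes was 4 in each list. The number of X-linked parents was then 1 in the knockout list and 0 in the control list. The shares over all genes were not counted under that filter. Knockout intervals at retrogenes that overlapped a control interval numbered 4 to 5 over 10 alternatives, with 4 of 4 among intervals listed at least 2 times and 4 of 6 when an overlap of 50% of both was asked, beside 5 of 6 otherwise. No paired analysis was possible because 1 list per genotype was analysed. Leaving out a replicate was not possible for the same reason. The reads used for each list are not stated beyond the labels' figure of more than 30000000 per library, so an absent interval does not show closed chromatin.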
